A study of Mus musculus with 15 samples.

Results

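The genes described here are Otx2, Fgf5, Pou3f1, Gbx2 and Zic2, a set that marks the formative and primed states of pluripotency, chosen by name and not by their values. They are 5 of the 22035 gene symbols in a table of H3K27me3 and RNA, with 1 row each among its 28373 rows. They also hold 13 of 74866 start-site windows measured for H3K4me3. Of 98085 bins of 2 kb that the authors call random, 8 lie within 20 kb of these genes: 5 near Zic2, 2 near Fgf5, 1 near Gbx2 and none near Otx2 or Pou3f1.

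The libraries come from TT2, a wildtype male mouse embryonic stem cell line of C57BL/6 x CBA origin derived from the inner cell mass of the blastocyst, with no treatment named in the labels. Histone marks were profiled by chromatin immunoprecipitation and paired-end sequencing (ChIP-seq) of sorted cells, with antibodies to H3K9me3 (1000000, 100000, 10000 and 1000 cells), H3K27me3 (100000, 10000 and 1000 cells), H3K4me3 (100000, 10000 and 5000 cells) and panH3, which binds histone H3 whatever its modification (1000 cells). RNA depleted of ribosomal RNA was sequenced from 1000 cells. Each group is 1 library, except H3K9me3 in 1000 cells (a, b and c) and panH3 (a and b), and the labels do not say whether these letters are separate cultures, so the p-values below measure only the spread between these libraries.

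Embryonic stem cells in culture move among a naive state like the early epiblast, a formative state in which they become competent to respond to lineage signals, and a primed state like the epiblast after implantation. FGF and ERK signalling drives the exit from the naive state, and the 5 genes serve as markers of that transition. OTX2 is a homeobox factor that redirects OCT4 to new enhancers, POU3F1 (OCT6) is a POU factor that favours neural fate, and ZIC2 is a zinc finger factor acting at enhancers. GBX2 is a homeobox factor that also acts downstream of LIF and STAT3 in naive cells, and Fgf5 encodes a secreted ligand used as a marker of primed epiblast. Polycomb repressive complex 2 deposits H3K27me3 over CpG-rich promoters of developmental genes, and in stem cells many of these promoters carry H3K4me3, the mark of active or poised starts, as well. H3K9me3 marks heterochromatin.

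The promoters are shown because the density of CG dinucleotides differs among genes that share the H3K27me3 mark. RefSeq (assembly GRCm38.p6) gave the 250 bases upstream of 6 starts of 3 of the genes. Each is written 5′ to 3′ on the gene's strand, with CG in capitals. All measured values and their coordinates are on the older build mm9, and no position was carried from one build to the other.
Fgf5, chr5:98253934-98254183, plus strand: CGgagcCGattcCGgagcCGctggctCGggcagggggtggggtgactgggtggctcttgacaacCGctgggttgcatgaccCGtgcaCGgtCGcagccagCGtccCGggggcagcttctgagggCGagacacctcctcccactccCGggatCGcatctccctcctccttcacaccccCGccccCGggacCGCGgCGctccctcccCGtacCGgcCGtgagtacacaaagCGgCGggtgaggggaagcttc
Gbx2, chr1:89931177-89931426, minus strand: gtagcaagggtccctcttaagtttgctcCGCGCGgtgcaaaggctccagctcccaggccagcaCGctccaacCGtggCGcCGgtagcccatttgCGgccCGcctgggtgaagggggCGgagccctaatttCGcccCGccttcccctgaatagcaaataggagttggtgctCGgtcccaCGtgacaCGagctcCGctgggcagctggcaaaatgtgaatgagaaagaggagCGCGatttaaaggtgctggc
Otx2, start nearest the gene body, chr14:48662735-48662984, minus strand: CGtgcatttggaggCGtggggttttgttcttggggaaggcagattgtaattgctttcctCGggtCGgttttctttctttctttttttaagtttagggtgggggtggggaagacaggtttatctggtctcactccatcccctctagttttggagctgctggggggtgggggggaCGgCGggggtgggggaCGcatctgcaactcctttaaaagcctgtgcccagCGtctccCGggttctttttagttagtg
Otx2, middle start, chr14:48665110-48665359, minus strand: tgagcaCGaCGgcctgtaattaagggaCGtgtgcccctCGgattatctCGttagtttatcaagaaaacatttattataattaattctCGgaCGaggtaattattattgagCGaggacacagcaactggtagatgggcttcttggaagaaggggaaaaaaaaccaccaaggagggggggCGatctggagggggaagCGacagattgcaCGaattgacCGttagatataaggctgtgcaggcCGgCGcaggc
Otx2, far start, chr14:48667509-48667758, minus strand: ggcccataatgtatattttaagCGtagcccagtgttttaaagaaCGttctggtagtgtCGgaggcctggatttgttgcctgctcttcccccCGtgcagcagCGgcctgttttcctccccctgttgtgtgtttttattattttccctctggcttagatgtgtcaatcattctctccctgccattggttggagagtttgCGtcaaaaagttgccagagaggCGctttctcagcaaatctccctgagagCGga
The Fgf5 stretch holds 24 CG, more than in 88.0% of 32851 RefSeq promoter stretches of this length (median 6), and its GC content was 70.8%. Gbx2 holds 18 CG and 61.6% GC. The starts of Otx2 have 9, 14 and 8 CG in the order printed, and an additional far start that overlaps the last stretch has 6. Motifs were searched on both strands. GGGCGG, the core of the SP1 motif, occurs once in Fgf5 and once in Gbx2 and in 32.7% of all promoter stretches. TAATCC, the core bound by OTX-type homeodomains, occurs once, at the middle start of Otx2, against 6.25% of all stretches. TATAAA occurs once, at the additional far start of Otx2 (12.4% of all), and the octamer ATGCAAAT occurs in none of the 6 (1.6% of all).

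The RNA library held the markers of the labelled cell type. All 10 listed markers of embryonic stem cells were above 1 RPKM (reads scaled to the length of the window and the depth of the library), from 43.35 (Lin28a) to 221.81 (Zfp42), and all 17 naive-state genes were too, led by Zfp42, Dppa5a, Esrrb and Nr5a2 (61.35) with Prdm14 lowest at 2.25. Of 10 fibroblast markers 3 passed 1 RPKM (Fn1 38.45, Fbln1 3.84, Thy1 1.79), their sum was 44.36, and Col3a1, Postn and S100a4 were listed at 0. Markers of primitive endoderm (2 of 8), neural progenitors (2 of 6) and trophoblast (2 of 6) summed to 4.8, 5.45 and 7.01 RPKM. With 1 RNA library no value below has a replicate check.

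Among the 5 genes RNA ranged from 0 to 9.51 RPKM, beside a median of 1.02 over all genes. Gbx2 (NM_010262) had the most, 9.51 RPKM, above 81.2% of genes. Zic2 (NM_009574) had 2.75 RPKM and Pou3f1 (NM_011141) 2.65, close to each other near the 61st percentile. Otx2 (NM_144841) had 1.19 RPKM, above 51.6% of genes. Fgf5 (NM_010203), the ligand of the primed epiblast, was listed at 0, and the depth of this library is unknown. Thus 4 of 5 were at or above 1 RPKM, against 50.2% of all genes. A low level in a bulk library can be few cells with much RNA or many cells with little, and these cannot be told apart here.

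In the gene table H3K27me3 was higher at Gbx2, Otx2 and Fgf5 than at Pou3f1 and Zic2. Values are RPKM within 1 kb of the start, in the order 100000, 10000 and 1000 cells. The median of the 5 was 2.26, 2.12 and 0.76 RPKM, beside 0.28, 0.28 and 0.31 over all genes. At or above 1 RPKM were 3, 5 and 2 of the 5, against 9.55%, 11% and 5.24% of all genes.

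Gbx2 (chr1:91824537-91827752, minus strand) had 3.16, 3.76 and 2.66 RPKM. It was the highest of the 5 in every library and stood above 99.5%, 99.7% and 99.9% of genes. Chromosome 1 itself read high. Its median bin was 1.44 to 1.59 times that of the other autosomes, with chromosomes 8 and 11 left out, in every bin library. The chromosomes of the other 4 genes read 0.917 to 1.0 times that reference. Divided by the chromosome 1 ratio, Gbx2 had 2.15, 2.61 and 1.74 RPKM. As listed, Otx2 had 2.44, 2.12 and 1.17 RPKM and Fgf5 2.26, 2.14 and 0.76. So scaled, Gbx2 was below both at 100000 cells and above both at 10000 and 1000 cells. Otx2 (chr14:49277857-49282548, minus strand) had 2.44, 2.12 and 1.17 RPKM, above 98.6%, 97.1% and 96.5% of genes. The divergent noncoding neighbour of Otx2, Otx2os1, read alike at 2.39, 2.57 and 1.53 RPKM, with 3.49 RPKM of RNA. Fgf5 (chr5:98683201-98706048, plus strand) had 2.26, 2.14 and 0.76 RPKM, above 98.1%, 97.2% and 89.3% of genes.

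Zic2 (chr14:122874609-122879552, plus strand) had 0.9, 1.23 and 0.2 RPKM, which put it above 88.7%, 92.0% and 27.6% of genes. Pou3f1 (chr4:124334889-124337896, plus strand) had 0.77, 1.18 and 0.31 RPKM, and at 1000 cells it equalled the median of all genes. The order of neighbours was not fixed. Otx2 and Fgf5 changed places between 100000 and 10000 cells, and Zic2 and Pou3f1 changed places at 1000 cells, so neither pair is separated by these libraries. As listed, Gbx2 was above Otx2 and Fgf5, and these above Zic2 and Pou3f1, in all 3 libraries, but the first of these orders turned at 100000 cells when Gbx2 was divided by the chromosome 1 ratio. The second order holds within the gene table only. A 2 kb bin over the Zic2 start, described below, read 1.70, 2.48 and 0.35 RPKM. At 10000 cells this is above the listed 2.12 of Otx2 and 2.14 of Fgf5, whose starts no bin covers.

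**Figure D1:**
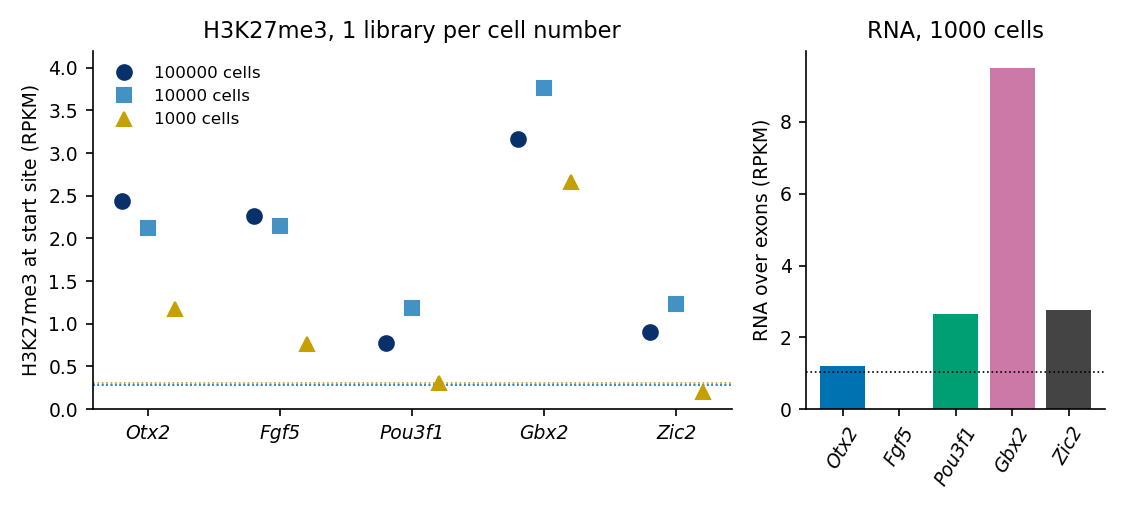
Left, H3K27me3 within 1 kb of the start (RPKM) for each gene in the libraries of 100000, 10000 and 1000 cells, 1 point per library, with dotted lines at the median of all genes (0.28, 0.28 and 0.31). Right, RNA over exons (RPKM) in the library of 1000 cells, with a dotted line at the median of all genes (1.02). Values are as listed, without division by the chromosome 1 ratio. So listed, Gbx2 is highest in both panels, Fgf5 is marked but listed at 0 RNA, and at 1000 cells Pou3f1 (0.31) is on the line and Zic2 (0.2) below it.

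H3K27me3 and RNA were both at or above 1 RPKM in 2 of the 5, Gbx2 and Otx2, using the library of 100000 cells. Over all genes 420 had both (1.91%), and of 2104 genes with H3K27me3 at or above 1 RPKM 20% had RNA at that level. As listed, without division by the chromosome 1 ratio, Gbx2 sat at the outer edge of the distribution of genes, with high values on both axes. Fgf5 lay among the many genes that carry the mark and are listed at 0 RNA, while Pou3f1 and Zic2 lay side by side at intermediate values of both.

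**Figure D2:**
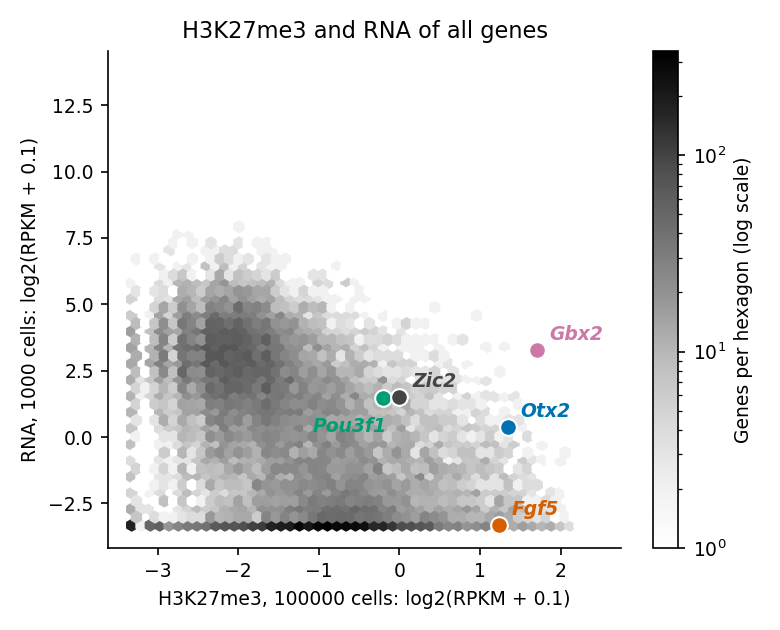
H3K27me3 at 100000 cells (x) against RNA at 1000 cells (y), both as log2(RPKM + 0.1), for 22035 genes as hexagons shaded by the number of genes on a log scale, with the 5 genes as coloured points. Values are as listed. Gbx2 lies at the upper right edge, Fgf5 on the row of genes at 0 RNA, and Pou3f1 and Zic2 next to each other.

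At 1000 cells the mark read lower than at 100000 cells at each of the 5 starts, whereas at 10000 cells it read higher at 3 of them. On the log2(RPKM + 0.1) scale the difference of 1000 minus 100000 cells was -1.74 for Zic2 and -1.46 for Fgf5, whose 1000-cell values were 0.222 and 0.336 times those of 100000 cells. It was -1.09 for Pou3f1, -1.0 for Otx2 and -0.24 for Gbx2. The 5 thus covered a wide range, with Gbx2 apart from the others. There is 1 library on each side, so no test can be made.

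Most marked genes went the same way. Of 1856 genes with a mean H3K27me3 of at least 1 RPKM 92.0% were lower at 1000 cells, with a median of -0.60, and of 4246 genes between 0.5 and 1 RPKM 63.5% were, with a median of -0.17. Over all genes the median was 0.0 and 46.5% were lower. Zic2 was extreme in its class: 0.212% of genes of 0.5 to 1 RPKM had a more negative difference, against 3.82% for Pou3f1. In the class of at least 1 RPKM 1.62% were more negative than Fgf5, 12.6% more negative than Otx2 and 81.9% more negative than Gbx2. At 10000 minus 100000 cells Pou3f1 (0.56), Zic2 (0.41) and Gbx2 (0.24) were higher, and Otx2 (-0.19) and Fgf5 (-0.07) lower. Most genes of both classes were not lower at 10000 cells. Of genes of at least 1 RPKM 496 of 1856 were lower, with a median of 0.141. Of those of 0.5 to 1 RPKM 1619 of 4246 were, with a median of 0.098. Both differences use the same library of 100000 cells. The values in the gene table are not whole multiples of a read, so no counting interval is given. As a guide, 1 RPKM over 2 kb is about 39.3, 30.6 and 26.0 reads at 100000, 10000 and 1000 cells, so that the low readings at 1000 cells stand on few reads.

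**Figure D3:**
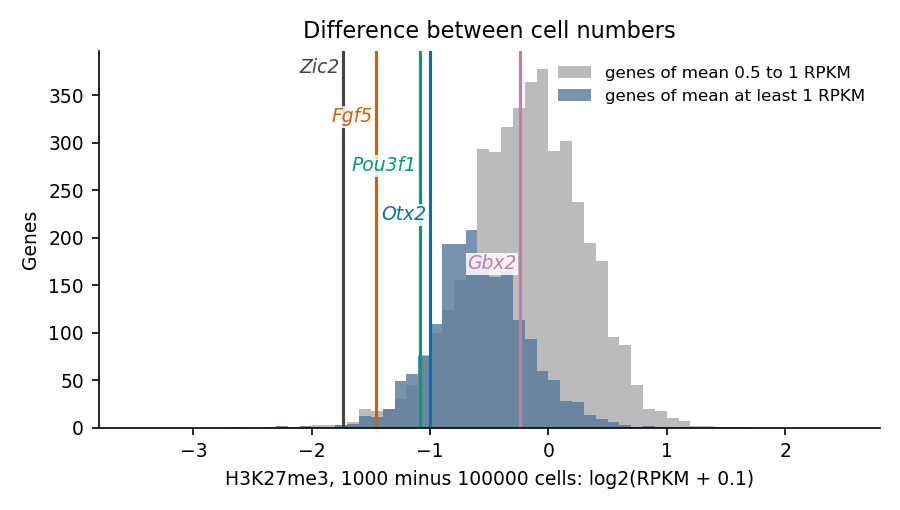
Histogram of the H3K27me3 difference of 1000 minus 100000 cells in log2(RPKM + 0.1) for genes of mean 0.5 to 1 RPKM (grey, 4246 genes) and of at least 1 RPKM (blue, 1856 genes), with a vertical line for each of the 5 genes. Zic2 (-1.74) and Fgf5 (-1.46) lie in the lower tail, and Gbx2 (-0.24) to the right of the median of its class (-0.60).

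H3K4me3 was higher at the starts of Zic2 and Pou3f1 than at those of Fgf5 and Otx2. Gbx2 is left out of this order, since its start was not analysed here for H3K4me3 and a strong window listed under another gene lies inside it. Windows of 1 kb were measured at 100000, 10000 and 5000 cells, and the values below are RPKM in that order, with exact Poisson 95% intervals that cover counting error only. The median of the strongest window per gene was 2.11, 8.44 and 2.69 RPKM for the 5 genes, beside 1.39, 3.75 and 2.15 over 25727 genes. This median of the 5 includes the only window listed under Gbx2, which does not lie at its start. Levels are compared within a library and not between them, since the median over all genes was itself highest at 10000 cells.

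Zic2 had a pair of overlapping windows at its start, 53 bp apart, of which the stronger read 7.23 (5.99 to 8.64), 33.75 (23.7 to 46.8) and 15.62 (10.5 to 22.4) RPKM, from 120, 36 and 29 reads. This put Zic2 above 89.3%, 83.6% and 83.4% of genes. The window of Zic2 2714 bp inside the gene had 1.81, 0.94 and 1.62 RPKM. Its neighbour Zic5, transcribed away from Zic2 on the other strand, had 4.88, 10.31 and 4.31 RPKM at its own start.

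Pou3f1 had a single window at its start with 5.9 (4.79 to 7.19), 17.81 (10.7 to 27.8) and 6.46 (3.34 to 11.3) RPKM, above 83.5%, 69.9% and 65.4% of genes. Zic2 read above Pou3f1 in each library, with intervals that overlapped. Overlap of intervals is not a test of a difference, and their order was not tested. Fgf5 had 2.11 (1.47 to 2.93), 8.44 (3.86 to 16.0) and 2.15 (0.587 to 5.52) RPKM. The interval of Fgf5 lay below that of Pou3f1 at 100000 cells and overlapped it in both smaller libraries, where Fgf5 rests on 9 and 4 reads.

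Otx2 had 7 windows over several annotated starts, none of which reached 2 RPKM at 100000 cells. The strongest, 941 bp inside the gene, had 1.99 (1.37 to 2.79), 5.63 and 2.69 RPKM, and the window at the start used by the gene table had 1.02 (0.596 to 1.64), 5.63 and 1.62. Farther upstream the values at 100000 cells were 1.26 in both windows 2373 and 2648 bp away and 0.54 to 0.6 in the 3 windows 4635 to 4771 bp away, so the lowest levels were farthest from the gene body. At the farthest window the 10000-cell library had no read, which allows up to 3.46 RPKM. The starts printed above are spaced by 2375 and 4774 bp in GRCm38.p6, and the windows in mm9 by 2374 and 4772 bp, so the middle and far promoter stretches, with 14 and 8 CG, belong to the windows of 1.26 and 0.6 RPKM by this spacing. The interval of the strongest Otx2 window overlapped that of Fgf5 in each library.

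The window listed under Gbx2 lies 2113 bp upstream of its start in the gene table and had 1.14 (0.689 to 1.79), 0 (up to 3.46) and 0.54 RPKM, so it does not describe that start. A window listed under D130058E05Rik, an overlapping gene on the opposite strand, covers chr1:91826310-91827309 inside Gbx2, 943 bp downstream of its start. It had 8.01 (6.71 to 9.49), 35.63 (25.2 to 48.9) and 11.85 (7.42 to 17.9) RPKM, with intervals that overlapped those of Zic2 in each library. ChIP reads carry no strand, so this signal cannot be assigned to either gene. No chromosome 1 ratio was taken for H3K4me3, so these values are unscaled. H3K4me3 at the gene-table start of Gbx2 itself was not analysed here.

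**Figure D4:**
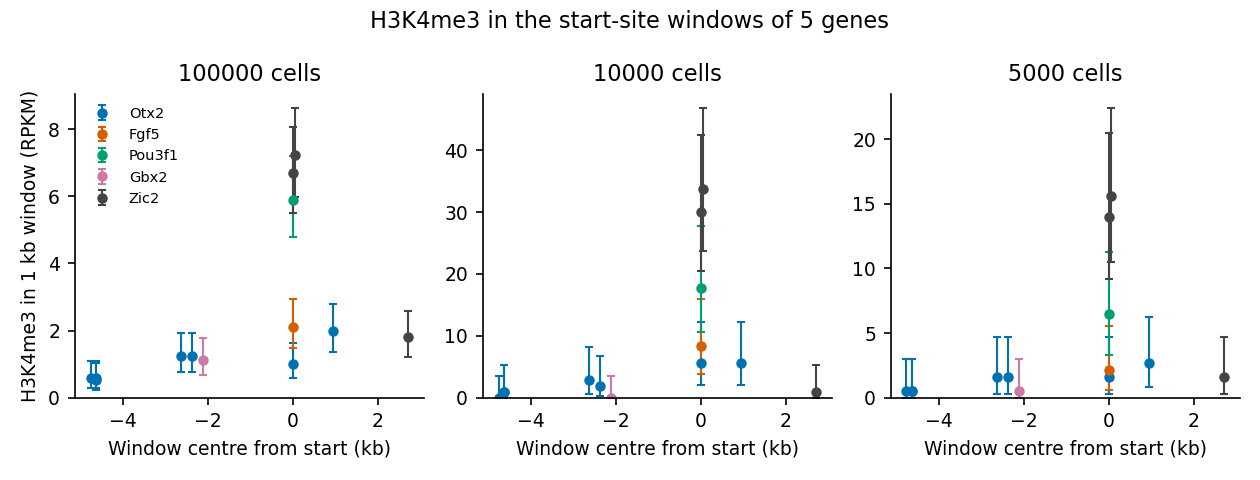
H3K4me3 in 1 kb windows (RPKM, y, a separate scale per library) against the distance of the window's centre from the gene-table start (kb, positive into the gene) at 100000, 10000 and 5000 cells. Points are the 13 windows listed under the 5 genes, and bars are exact Poisson 95% intervals. Zic2 and Pou3f1 are the highest of these windows in each library, and the only Gbx2 window lies 2113 bp upstream.

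The 8 bins near Fgf5, Gbx2 and Zic2 add the flanks and the other marks. The mean of panH3 a and b at 1000 cells served as the reference of nucleosome density for H3K27me3 of all cell numbers, on the log2(RPKM + 0.1) scale, since the panH3 libraries analysed here are both of 1000 cells. H3K27me3 was at least 2-fold above panH3 in 5, 5 and 1 of the 8 bins at 100000, 10000 and 1000 cells, against 4.26%, 5.14% and 2.49% of 93505 bins. The median difference was 1.49, 1.44 and 0.30, beside -0.11, -0.13 and -0.06 over all bins. The 5 bins near Zic2 share a stretch of chromosome and are not independent of each other.

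Around Zic2 the mark was broad. The bin over its start (chr14:122874001-122876000) had 1.70, 2.48 and 0.35 RPKM of H3K27me3 at 100000, 10000 and 1000 cells, where panH3 a and b were 0.17 and 0.26. The H3K27me3 differences from panH3 were 2.53, 3.05 and 0.53 log2 units, the first 2 of them the highest of the 8 bins. The bin values were 1.89, 2.02 and 1.75 times the gene-table values of Zic2, over an overlap of 1608 bp. For comparison, bins were paired with starts they overlapped by at least 1500 bp, where the gene-table value was at least 0.5 RPKM in that library. Over 210, 218 and 201 such pairs, with Zic2 among them at 100000 and 10000 cells, the median ratio was 1.12, 1.13 and 1.05. The Zic2 ratio lay inside the central 90% except at 1000 cells (0.397 to 1.68). There its gene-table value of 0.2 RPKM was below the limit set for the pairs, so the comparison is not like for like. The tables count the same libraries over shared sequence, so they are no check of each other, and Zic2 stood higher in the bin table.

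Between Zic2 and Zic5, 7.6 kb upstream of the Zic2 start and outside any listed gene, the bin chr14:122866001-122868000 had 2.52, 2.71 and 1.0 RPKM of H3K27me3. Downstream of Zic2, at 18.4 kb from its start and 12.4 kb past its end, chr14:122892001-122894000 had 2.19, 2.03 and 1.34 RPKM, and it was the only bin of the 8 that stayed 2-fold above panH3 at 1000 cells. Inside Zic5 the values were lower, 1.07, 1.31 and 0.38 RPKM in the bin 11.6 kb upstream and 0.48, 0.59 and 0.23 in the bin 13.6 kb upstream. At 1000 cells the exact Poisson interval of the downstream bin (0.936 to 1.87 RPKM) lay above that of the bin over the Zic2 start (0.158 to 0.656).

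Near Fgf5 the bin in its last part (chr5:98702001-98704000) had 0.58, 0.78 and 0.38 RPKM of H3K27me3, against 2.26, 2.14 and 0.76 at the start in the gene table. The bin 14 kb past the gene (chr5:98720001-98722000) had 1.25, 1.14 and 0.23 RPKM, with 1.30 and 1.17 log2 units above panH3 at 100000 and 10000 cells and -0.74 at 1000 cells. Its 1000-cell value rests on 6 reads (0.0846 to 0.502 RPKM). Near Gbx2 the bin 16.5 kb beyond the gene (chr1:91806001-91808000) had 0.97, 0.69 and 0.81 RPKM beside panH3 of 0.70 and 0.69, so the flank sampled there held little of the mark that the Gbx2 start carried.

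On average H3K9me3 read below panH3 in these bins, apart from the bin downstream of Zic2. In the bin inside Fgf5 the difference was small and the libraries of the 2 groups overlapped. In the test of H3K9me3 (a, b and c) against panH3 (a and b) at 1000 cells, with limma over 93575 bins and Benjamini-Hochberg adjustment, 4 of the 8 bins were lower and 1 was higher. Over all bins 24.7% were lower and 15.2% higher. The median difference was -0.62 log2 units in the 8 bins and -0.10 over all bins.

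The bin 18.4 kb downstream of the Zic2 start was the higher one. H3K9me3 there was 1.05, 1.09 and 0.96 RPKM against panH3 of 0.56 and 0.53, a difference of 0.81 ± 0.17 (SE) with a limma adjusted p of 0.000396. The 2 groups did not overlap, which also held in bins that were not called. With more cells H3K9me3 read 0.77 at 1000000, 1.55 at 100000 and 1.27 at 10000. This bin thus had H3K9me3 and H3K27me3 above panH3 at once, in different libraries of a bulk population.

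The bin inside Zic5, 13.6 kb upstream of Zic2, was the lowest against panH3, with H3K9me3 of 0.23, 0.11 and 0.13 RPKM and panH3 of 0.61 and 0.49, a difference of -1.36 ± 0.26 (SE; limma adjusted p = 0.000153). The intergenic bin 7.6 kb upstream of Zic2 had H3K9me3 of 0.28, 0.20 and 0.26 RPKM against 0.62 and 0.52, a difference of -0.95 ± 0.24 (limma adjusted p = 0.00182). In the bin near Gbx2 H3K9me3 was 0.43, 0.33 and 0.37 RPKM against 0.70 and 0.69, a difference of -0.74 ± 0.21 (limma adjusted p = 0.00483). The groups did not overlap in any of these 3 bins, nor in the uncalled bins at the Zic2 start and past Fgf5. Such separation was not counted over all bins. The bin 11.6 kb upstream of Zic2 was close to the threshold, with 0.14, 0.11 and 0.15 RPKM against 0.25 and 0.28 (-0.65 ± 0.26, limma adjusted p = 0.0471).

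The other 3 bins did not pass. At the Zic2 start H3K9me3 was 0.11, 0.16 and 0.13 RPKM against 0.17 and 0.26 (-0.42 ± 0.26, limma adjusted p = 0.218), on 4 to 22 reads per library. At Fgf5 the bin in the gene had 0.43, 0.31 and 0.33 RPKM against 0.40 and 0.36 (-0.08 ± 0.23, limma adjusted p = 0.818). The bin past Fgf5 had 0.23, 0.29 and 0.29 RPKM against 0.43 and 0.47 (-0.58 ± 0.24, limma adjusted p = 0.0549).

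Several of the lower calls were lost when a library was left out, although the differences stayed similar in size. Leaving out panH3 a or b leaves 1 library in that arm, and over all bins the lower calls then went from 23158 to 15564 or 15521. Without panH3 a only the bin 13.6 kb upstream of Zic2 was still called lower, and the difference was -0.71 for the bin at 11.6 kb (limma adjusted p = 0.191), -0.85 for that at 7.6 kb (0.0756) and -0.73 for the Gbx2 bin (0.0728). Without panH3 b 2 of the 4 were called, the Gbx2 bin (-0.75, limma adjusted p = 0.0649) and the bin at 11.6 kb (-0.59, 0.295) being lost, and without H3K9me3 b the bin at 11.6 kb was lost (-0.57, 0.116). Centring each library on its median turned the split over all bins from 23158 lower and 14224 higher to 18564 lower and 20312 higher, and left 3 of the 8 bins lower, without the bin at 11.6 kb (limma adjusted p = 0.146).

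No trend of H3K9me3 with cell number was called near these genes. Over the 6 H3K9me3 libraries the slope against log10 cell number passed the limma threshold in 0 of the 8 bins, and none had an unadjusted p under 0.05. Over all 93569 bins 1 was called falling (0.00107%) and 0 rising, with 1875 falling and 5173 rising at an unadjusted p under 0.05.

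**Figure D5:**
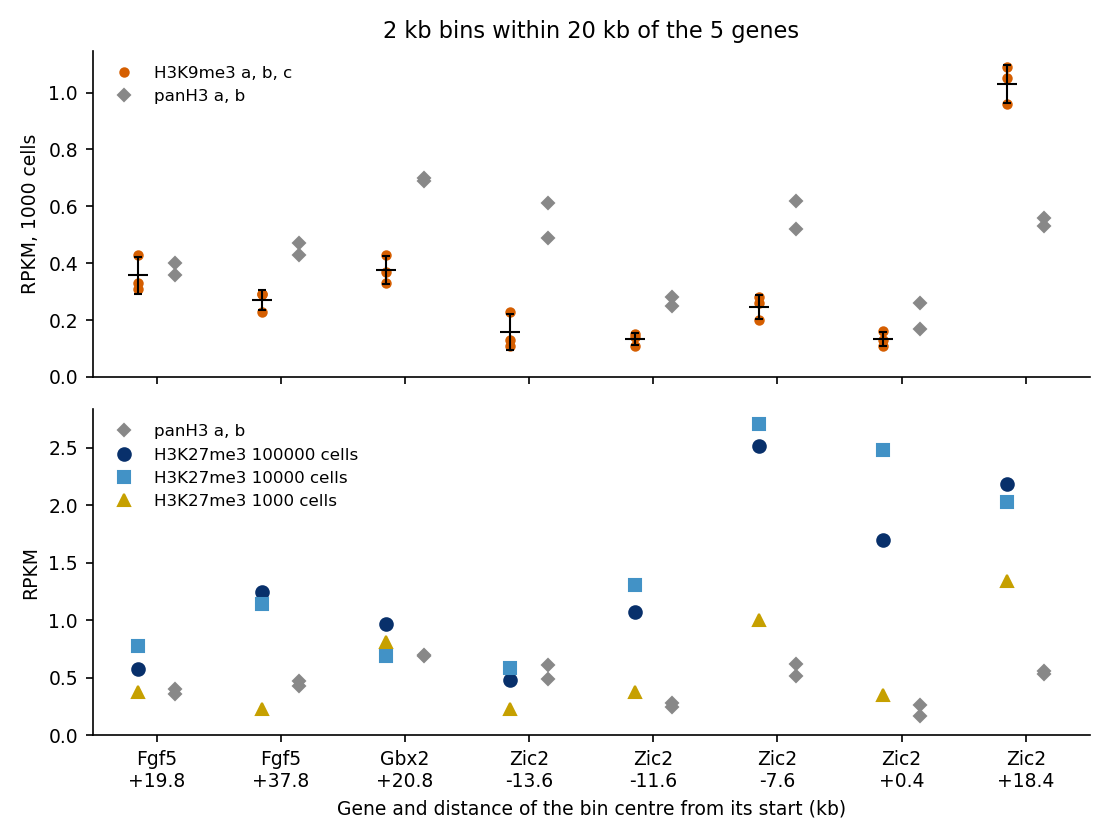
RPKM in the 8 bins, labelled by the nearest of the 5 genes and the distance of the bin's centre from its start (kb). Top, H3K9me3 a, b and c with their mean and SD (bars) beside panH3 a and b, all at 1000 cells; bottom, H3K27me3 at 100000, 10000 and 1000 cells (1 library each) beside the same panH3 values. The bin 18.4 kb downstream of Zic2 has H3K9me3 (0.96 to 1.09) above panH3, and 5 bins have H3K27me3 at least 2-fold above panH3 at 100000 cells.

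Most other formative and primed genes had RNA, and some had H3K27me3. Of 26 such genes 20 had RNA of at least 1 RPKM, 7 had H3K27me3 of at least 1 RPKM at 100000 cells and 3 had both, against 50.2%, 9.55% and 1.91% of all genes. Their median RNA was 5.26 RPKM and their median H3K27me3 0.405 RPKM at 100000 cells, beside 1.02 and 0.28 over all genes. Foxd3, a forkhead factor of the epiblast, and Tcf15, a helix-loop-helix factor of early priming, were 2 of the 3 with both: Foxd3 had 4.78 RPKM of RNA with 2.33 of H3K27me3, and Tcf15 30.46 with 1.22. Grhl2, the third of them, had 2.91 RPKM of RNA and 1.49 of H3K27me3. Fgf15 (2.43 RPKM of H3K27me3, 0.28 of RNA), Eomes (2.05 and 0.38) and T (1.69 and 0.09), were, like Fgf5, marked with RNA below 1 RPKM. The highest RNA values were those of Jarid2 (1071.2 RPKM), Utf1 (55.06), Tcf15 and Etv4 (29.18), and Cer1 was listed at 0. Jarid2 is an outlier, beside a sum of 1316 RPKM over the 26 genes and 221.81 for Zfp42, the highest stem cell marker. Whether that reading, from 1 library, is Jarid2 messenger RNA was not tested.

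In the pathway that Fgf5 would signal through, 24 of 27 FGF and ERK genes had RNA of at least 1 RPKM, against 50.2% of all genes, and 3 had H3K27me3 of at least 1 RPKM, a share near the 9.55% of all genes. Fgf4, the FGF ligand of naive cells, had 21.06 RPKM of RNA where Fgf5 was listed at 0, and its H3K27me3 was 1.17 RPKM against 2.26 for Fgf5. Among receptors Fgfr1 had 9.06 RPKM, Fgfr2 0.75, and Fgfr3 and Fgfr4 0.34 each, the latter pair with H3K27me3 of 2.23 and 1.08 RPKM. Abundant pathway RNAs included Spred2 (46.44 RPKM), a pathway inhibitor, and the ETS factors Etv5 (40.98) and Etv4. Of 17 naive genes 2 reached 1 RPKM of H3K27me3, Esrrb with 3.68 and Fgf4, a share near the 9.55% of all genes, and their median was 0.38 RPKM beside 0.28.

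By the distance over the 7 values of H3K27me3, H3K4me3 and RNA on the log2(RPKM + 0.1) scale, among 20317 genes with all of them, the nearest genes to Otx2 were Adcy7 (0.39), Fam174b (0.70) and Mafa (0.80), where the median distance to all genes was 6.93. Those nearest to Fgf5 were Fam69c (0.39), A530058N18Rik (0.47) and Bmp2 (0.63), and those nearest to Pou3f1 were Inpp4a (0.71), Pwwp2b (0.73) and Kcnk1 (0.86). Zic2 had Gpc1 (1.05), Cachd1 (1.06) and Sfmbt1 (1.08). For Gbx2 the nearest genes were farther off, Insl3 (2.04), 1700020L24Rik (2.19) and 6820431F20Rik (2.69). Its H3K4me3 values were taken from the window 2113 bp upstream, so these distances do not describe its start. The most alike of the 5 were Pou3f1 and Zic2, at a distance of 1.66.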

How the data were processed

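ChIP-seq and RNA-seq values of 15 TT2 libraries were used (6 H3K9me3, 3 H3K27me3, 3 H3K4me3, 2 panH3, 1 RNA), grouped by mark and cell number as the labels give them. The authors deposited RPKM values, per the file headers, in 3 tables: 2 kb bins, 1 kb start-site windows, and genes (H3K27me3 within 1 kb of the start, RNA over exons). BWA, SAMtools and mm9 are named in the submitters' processing notes, without versions; how reads were counted and filtered is not given in the sources used here. For panH3 the header names no unit, and RPKM was inferred from the steps of its values. The start-site windows come with 2 columns that belong to another series and were left out. The highest bin value is 5 RPKM and the highest H3K4me3 windows are at 49.21, 99.38 and 49.55 RPKM (100000, 10000 and 5000 cells), so stronger ones may be missing and percentiles are those among the rows present.

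In windows of equal length 99.1% to 100.0% of low values were whole multiples of 1 read to 2 decimals, which gave depths of 13.4 to 45.5 M reads for H3K9me3, 13.0 to 19.7 for H3K27me3, 42.0 to 42.1 for panH3, and 16.6, 1.07 and 1.86 for H3K4me3 at 100000, 10000 and 5000 cells. Intervals are exact Poisson 95% intervals on those reads and cover counting error only. The floor for a count of 0 is their upper bound.

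RPKM values are not counts, so tests used limma 3.58.1 (R 4.3.3; trend and robust moderation, two-sided, Benjamini-Hochberg threshold 0.05) on log2(RPKM + 0.1) over bins above 0 in a library compared; a pseudocount understates changes of low values. On simulated bins (200 changed) the test of H3K9me3 against panH3 found 9% of the bins changed by 1 log2 unit and 72% of those changed by 2 (0 false calls, 93525 bins). For the slope these shares were 2% and 60% (0 false calls, 93524 bins). In the data the test of H3K9me3 against panH3 called 24.7% of bins lower and 15.2% higher, far more than were changed in the simulation. The adjusted threshold depends on that share, so the simulated 9% and 72% do not give the power of that test in the data. The letters a and b were not used to pair libraries in the main test. Deviations of a from b in the 2 marks correlated at -0.00955 over 93575 bins. Counting noise in low bins can hide a shared source, so this does not settle whether the letters pair libraries. Groups of 1 library carry no test. Where symbols repeat, the row or window with the highest mean stands for the gene. Symbols were taken from the deposited tables, and older symbols of 2 listed genes were matched through RefSeq synonyms.

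The named genes are the 5 genes, their paralogs, from each list up to 4 with the highest RNA and H3K27me3 and the lowest, the 3 nearest genes to each by Euclidean distance, and every bin within 20 kb; Fgfr1, Fgfr2, Grhl2, the marker genes Lin28a, Fn1, Fbln1, Thy1, Col3a1, Postn and S100a4, and the neighbours Otx2os1 and D130058E05Rik were named after their values were seen. Some genes that this rule names are not reported here. The members and lists were chosen with earlier results of these data known. Alternatives covered the pseudocount, low-value filter, scaling, a block, voom on recovered reads, the rows standing for a gene, a 50 kb radius and each replicate left out. Software was matplotlib 3.10.9, scipy 1.17.1, pandas 2.3.3 and numpy 2.4.6 under Python 3.11.15.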

Additional observations from a re-analysis of the deposited data

How the results depend on the processing

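Among the 8 bins, the count with H3K9me3 below panH3 (4) ran from 1 to 4 when a library was left out; leaving out a panH3 library leaves 1 sample in that arm, which is then assumed to vary like the other group. With a replicate block on the letters, whose meaning the labels do not give, 3 bins were lower and 1 higher. The count of lower bins was 5 with a pseudocount of 1 RPKM or with voom on recovered reads, 3 with a minimum mean of 0.2 RPKM, and 6 of 14 bins within 50 kb. The bin higher than panH3, 18.4 kb downstream of Zic2, was called under each of these settings, as was the lower bin 13.6 kb upstream. The slope called none of the 8 bins in any setting tried. With a pseudocount of 1 RPKM 0 bins, in place of 1, had H3K27me3 at least 2-fold above panH3 at 1000 cells. The median H3K27me3 difference of 1000 minus 100000 cells over the 5 genes was -1.09, and became -1.37 with each library divided by its median (which moved the median of all genes from 0.0 to -0.09) and -0.66 with a pseudocount of 1 RPKM. The median H3K4me3 difference of 5000 minus 100000 cells was 0.13 over the 5 genes, with the off-start window of Gbx2 among them. It became 0.11 with a pseudocount of 1 RPKM. Over the 4 genes with a window at the gene-table start it was 0.37, an alternative chosen after seeing the data. The H3K4me3 median over all genes was itself 1.39 RPKM at 100000 cells and 2.15 at 5000 cells. These differences are therefore not read as a rise at the 5 genes. None of the bins called for H3K9me3 changed sign in these settings, while the uncalled bin inside Fgf5 went from -0.08 to 0.09 when libraries were centred on their medians. The causes of the shifts were not tested. Depth limits the H3K4me3 values most, since 1 read is worth 0.938 RPKM at 10000 cells and 0.539 at 5000.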

Other observations

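Most paralogs of the 5 genes had the mark and little RNA. Of 14 paralogs 9 had H3K27me3 of at least 1 RPKM at 100000 cells, 4 had RNA of at least 1 RPKM and 1, Fgf4, had both, against 9.55%, 50.2% and 1.91% of all genes, with medians of 1.29 RPKM of H3K27me3 and 0.075 RPKM of RNA beside 0.28 and 1.02 over all genes. Otx1 had 5.24, 5.3 and 2.96 RPKM of H3K27me3 at 100000, 10000 and 1000 cells, above Otx2 in each library, and 0.06 RPKM of RNA. Pou3f2 (2.58, 2.71 and 1.38) and Pou3f3 (2.48, 2.8 and 1.59) were above Pou3f1 in each library, with 0.04 and 0.07 RPKM of RNA. Zic1 (2.38, 2.78 and 1.43) and Zic4 (2.37, 3.38 and 1.8) were above Zic2 in each library, whereas Zic5 (0.32, 0.41 and 0.38) had 2.96 RPKM of RNA. Gbx1 was below Gbx2 in each library, with 0.39, 0.34 and 0.4 RPKM of H3K27me3 and 3.04 of RNA. All 8 paralogs with a mean H3K27me3 of at least 1 RPKM were lower at 1000 than at 100000 cells, as were 92.0% of all genes of that level. Values of Otx1, on chromosome 11, and of Pou3f3, on chromosome 1, are as listed and were not scaled. With 1 library per group none of these differences was tested.

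Between 20 and 50 kb from the genes lay 6 further bins. In the bin over Asb18, 20.2 kb from Gbx2 (chr1:91848001-91850000), H3K27me3 was 1.55, 1.54 and 1.38 RPKM at 100000, 10000 and 1000 cells, where panH3 was 0.71 and 0.63. In the bin over Utp11l, 26.1 kb from Pou3f1 (chr4:124364001-124366000), H3K9me3 differed from panH3 by -1.67 ± 0.26 log2 units (SE, limma adjusted p = 0.000012), and in the bin over Gm5089, 30.6 kb from Zic2, by -1.21 ± 0.25 (limma adjusted p = 0.000252).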
